A study of Homo sapiens with 33 samples.

Results

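The comparison described here is of NB4 cells exposed to all-trans retinoic acid (ATRA) for 12 h with NB4 cells given the solvent dimethyl sulphoxide (DMSO) for the same time, by total RNA sequencing. NB4 is an established human cell line from acute promyelocytic leukaemia, a disease of cells arrested at the promyelocyte stage of neutrophil formation by the PML-RARA fusion gene. The members are the 6 libraries whose labels give 12 h and either agent, 3 per agent, out of 33 libraries in the series. ATRA was given at 1 µM, and the amount of DMSO is not given in the sources used here. The other libraries are 3 of untreated NB4 cells at 0 h and ATRA and DMSO groups of 3 at 4, 24, 72 and 120 h, of which the 0, 4 and 24 h groups serve below as neighbours. The labels number the libraries of each group 2, 4 and 5, call them biological triplicates, and state that each was sequenced in 2 technical runs. All cells are of 1 line, so the p-values below measure the spread between cultures of that line.

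Retinoic acid enters the nucleus and binds retinoic acid receptors (RARs), which sit on DNA as pairs with retinoid X receptors (RXRs) and turn from repressors into activators of transcription when the ligand is bound. The PML-RARA fusion protein keeps the repressor function at physiological retinoid levels, and a pharmacological dose of ATRA releases its corepressors and leads to its breakdown. Promyelocytic cells then leave the cell cycle and mature toward neutrophils over some days, which makes NB4 a standard model of differentiation therapy.

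Total counts ran from 19937992 to 33490654 over the 6 libraries, and all 6 were sequenced in lane 4. Pearson's r of log2 CPM (counts scaled to the library total after TMM adjustment) was 0.990 to 0.992 over the 6 pairs of libraries within a group and 0.970 to 0.974 over the 9 pairs across the groups. Of 10 measured promyelocyte markers, 5 rose and 4 fell, and their summed level was 8528 to 9603 CPM with ATRA and 10194 to 11565 CPM with DMSO. Most of that sum was MPO, which fell, so the sum does not give the direction of the other markers. Markers of other lineages were checked as lists. The monocyte and macrophage markers summed to 31.3 to 31.9 CPM with ATRA and 9.32 to 9.42 CPM with DMSO, with 2 of 7 tested members called higher (CSF1R and MERTK), while MRC1, C1QB, C1QC and CD209 had no count in any of the 6 libraries. CD14, a member that went the other way, was not called (log2 fold change -2.61, edgeR adjusted p = 0.059). It was called lower in 1 of 14 alternative fits, that without ATRA replicate 5. HBB, HBA1, HBG1, ALAS2, AHSP and PF4 of the red cell and platelet list, MS4A1 of the lymphocyte list and KRT19, COL3A1 and LUM of the tissue list also had none. The eosinophil, basophil and mast cell markers summed to 518 to 585 CPM with ATRA and 757 to 825 CPM with DMSO, the lymphocyte markers to 119 to 143 CPM against 83.2 to 101 CPM. The part of other cell types in the results below was not tested. In bulk RNA, fewer cells of a type and less RNA per cell cannot be told apart.

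ATRA changed a large part of the transcriptome by 12 h. Of 22971 genes tested, 8888 (38.7%) were called at an adjusted p below 0.05 by edgeR's quasi-likelihood test, 4600 (20%) higher and 4288 (18.7%) lower; the words rose and fell are used below only for such calls. Which direction had more calls depended on the processing: 4357 were higher and 4615 lower with RLE scaling, 4009 and 4425 with DESeq2, 3899 and 3945 without DMSO replicate 4, 3946 and 4015 without DMSO replicate 5, and 4060 and 4107 without ATRA replicate 4. Of 13418 protein-coding genes, the class of most genes listed below, 49.5% were called, 2917 higher and 3724 lower. Over all genes tested, the large changes were mostly rises. At least a 2-fold change was called for 1918 genes higher and 494 lower, at least 4-fold for 782 and 125, and at least 8-fold for 379 and 25. The median log2 fold change over all genes tested was 0.03, and in 8393 of the called genes (94.4%) the 3 ATRA libraries did not overlap the 3 DMSO libraries, against 47.3% of all genes tested. Levels are given as CPM in the order of replicates 2, 4 and 5, and fold changes as log2 of ATRA over DMSO with their standard error (SE). CPM are not scaled to gene length, so they are compared between groups and not between genes. The exceptions are sums over lists and a ranking of genes by CPM difference. Reads over bases shared by 2 models of the same strand were counted for both. Of the genes named below, CRABP2, CEBPA, CEBPB, HOXA2, DUSP2, PSMB8, PSMB10, HLA-E, ISG20, FAS, ARL14EPL, BAHCC1, LINC03048, UCN2, ANXA8L1 and CCL4 share over 50% of their exon bases in this way, and their values are uncertain to that extent.

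Of 5 retinoid receptor genes tested, 4 were called higher at 12 h and 1 lower, with a median log2 fold change of 0.37. RARB, the receptor gene that retinoic acid itself induces in many tissues, had no count in any of the 3 DMSO libraries and 0.362, 0.721 and 0.637 CPM with ATRA, which was 53 counts in all and at least 17.1-fold higher over the floor of 3 counts for the group. Its promoter is printed because it holds the repeat through which RARs are known to act. The window of 250 bases before to 50 bases after the start site, from RefSeq on GRCh38.p14, plus strand, chr3:25428013-25428312, with the paired hexamers of the repeat in capitals, reads:
RARB promoter: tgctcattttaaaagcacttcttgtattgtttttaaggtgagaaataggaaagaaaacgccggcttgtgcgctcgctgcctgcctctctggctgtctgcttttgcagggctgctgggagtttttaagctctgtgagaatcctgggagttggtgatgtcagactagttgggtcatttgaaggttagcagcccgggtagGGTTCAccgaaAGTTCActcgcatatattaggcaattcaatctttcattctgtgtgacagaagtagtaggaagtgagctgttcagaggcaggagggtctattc
The repeat is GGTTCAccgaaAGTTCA, 2 hexamers in the same orientation with a spacer of 5 bases, at -53 to -37 from the start. A search on both strands for the hexamer AGGTCA, which is the consensus, and its variants AGTTCA and GGTTCA, which both occur here, and also GGGTCA, paired in 1 orientation with a spacer of 1, 2 or 5 bases found it in 1 of 50 promoters searched, those with an entry among the genes of largest change, a core set and the named members of the retinoid lists. Among all 35116 promoters of that length, 0.259% held any of these repeats and 0.0883% held the one with a spacer of 5. RARB was in the core set by choice, so its match is no support for a higher share among the genes searched. Of 71 genes, 50 had an entry and only the first entry of each was read, while the 35116 count every entry. A match describes letters in this window and was not tested for binding.

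RARG, a second receptor that binds the ligand, rose from 0.435, 0.736 and 0.115 CPM with DMSO to 1.45, 1.77 and 2.4 CPM with ATRA (log2 fold change 2.06, SE 0.30, adjusted p = 4.66e-07; 2.77 without DMSO replicate 4). All 3 ATRA libraries lay above all 3 DMSO libraries. Its effect had been larger at 4 h, at 4.87 on the log2 scale, and the fall from 4 to 12 h was itself called (difference -2.80, adjusted p = 1.86e-05). RXRA, the most common partner of RARs, went the other way: it fell to 47.4, 56.1 and 52.6 CPM from 149, 172 and 167 CPM (log2 fold change -1.64, SE 0.09, adjusted p = 1.06e-17), with no overlap. RXRB rose by 0.37 (SE 0.10, adjusted p = 0.00286) with overlapping groups. RARA, whose counts in these cells include transcripts of the fusion gene as well as those of the normal allele, read 49.9, 55 and 55.4 CPM with ATRA and 45.2, 47.8 and 45.7 CPM with DMSO (log2 fold change 0.21, SE 0.08, adjusted p = 0.0438). That call was lost in 9 of 16 alternative fits, among them those without any 1 of the 12 h libraries except ATRA replicate 2. Over all 16 the adjusted p ran from 0.000146 to 0.172.

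Genes that bind, make and break down retinoids held some of the clearest rises. DHRS3, an enzyme that reduces retinal to retinol and so lowers the supply of retinoic acid, read 92.1, 105 and 94.7 CPM with ATRA and 1.42, 1.88 and 1.6 CPM with DMSO (log2 fold change 5.87, SE 0.12, adjusted p = 1.75e-31). The lowest ATRA library was far above the highest DMSO library. CYP26A1 and CYP26B1, the hydroxylases that degrade retinoic acid, rose by 1.65 (SE 0.40, adjusted p = 0.000853) and 3.99 (SE 0.44, adjusted p = 1.16e-09), from levels under 0.3 CPM with DMSO, while CYP26C1 did not pass at 0.00. STRA6, a membrane receptor for retinol-binding protein, rose from 9.84, 10.4 and 10.7 to 58.1, 63.7 and 67.9 CPM (log2 fold change 2.62, SE 0.10, adjusted p = 1.07e-23), DHRS9, a retinol dehydrogenase, by 1.94 and ALDH1A2, which makes retinoic acid from retinal, by 3.39 (4.51 without DMSO replicate 2 and 2.76 without DMSO replicate 4). In all, 6 of 13 tested members of this list rose and 3 fell, with a median of 0.00 against 0.03 over all genes. Those that fell were FABP5, a carrier that delivers retinoic acid to another nuclear receptor (-0.71), RDH10, which makes retinal (-0.55), and RETSAT (-0.22). RETSAT was not called in 5 of 16 alternative fits, including those without DMSO replicate 4, DMSO replicate 5 or ATRA replicate 4 (adjusted p 0.00957 to 0.112 over all). CRABP2, a cytoplasmic carrier of retinoic acid, was not called at -0.13 (SE 0.07).

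**Figure D1:**
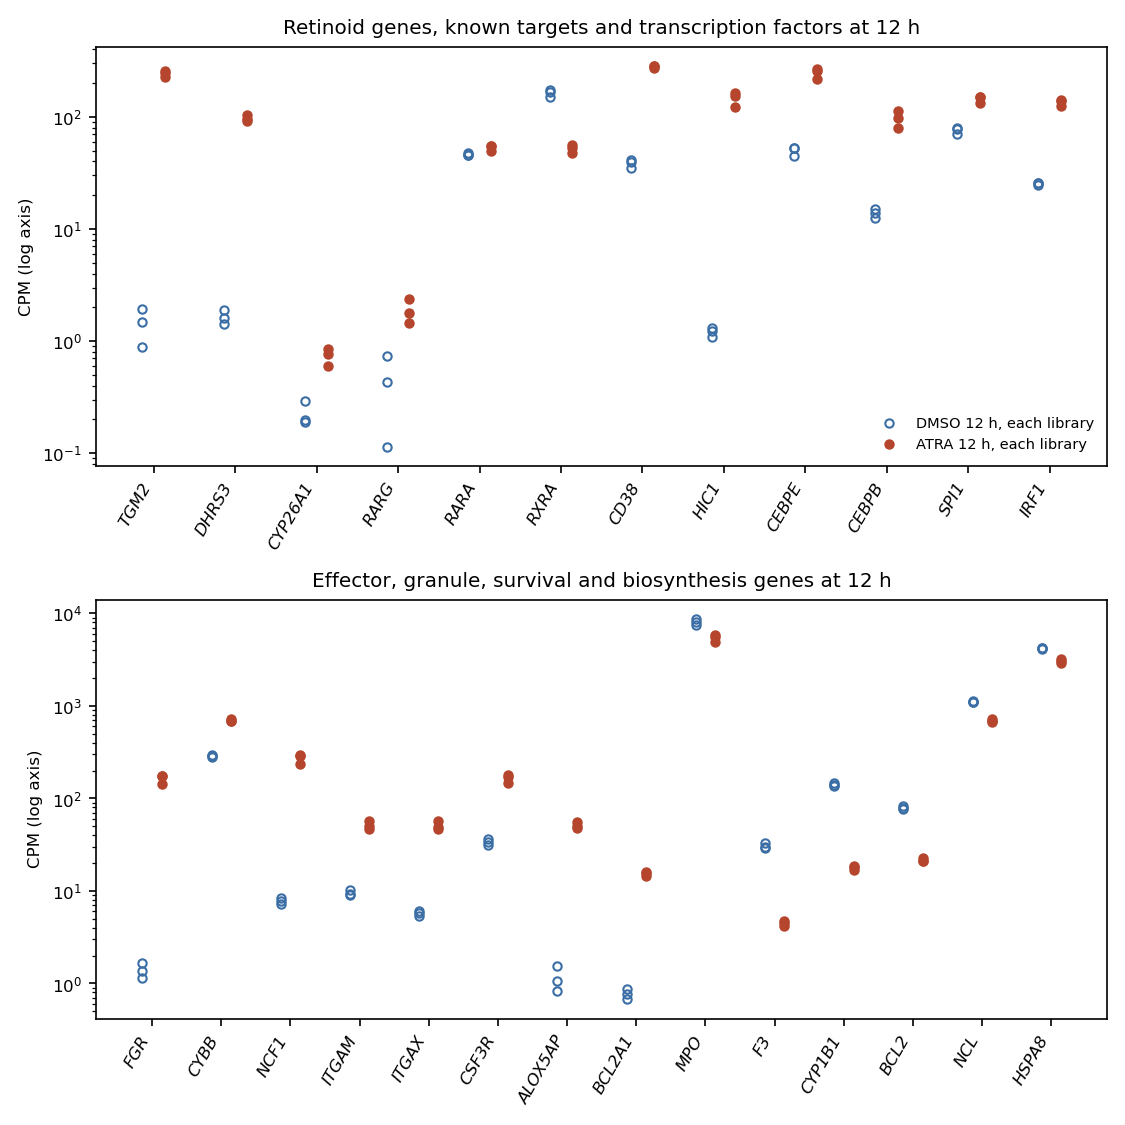
Each point is 1 library at 12 h, open blue for DMSO and filled red for ATRA, with the level in CPM on a log axis; the upper panel shows retinoid genes, known targets and transcription factors and the lower panel effector, granule, survival and biosynthesis genes. The ATRA points of TGM2, DHRS3, HIC1 and FGR lie far above the DMSO points, and those of RXRA, CYP1B1, F3 and BCL2 lie below.

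Of 13 genes listed as known targets of retinoic acid in myeloid cells, 11 rose and none fell, with a median of 2.37. The list was drawn up with earlier results of these data known, so its counts describe these data and are not independent support. TGM2, tissue transglutaminase, was at 226, 243 and 259 CPM with ATRA and 1.94, 0.884 and 1.49 CPM with DMSO (log2 fold change 7.44, SE 0.25, adjusted p = 2.21e-25). HIC1, a transcriptional repressor, was at 123, 162 and 154 CPM against 1.22, 1.09 and 1.3 CPM (log2 fold change 6.93, SE 0.14, adjusted p = 1.05e-31). Both were under 2 CPM in every DMSO library and far above that in every ATRA library. CD38, a surface enzyme that consumes NAD, rose to 283, 284 and 271 CPM from 41.6, 39.1 and 35.2 CPM (log2 fold change 2.85, SE 0.07, adjusted p = 7.38e-30). PRAM1, an adaptor named for its suppression by PML-RARA, rose by 4.18, ASB2, a ubiquitin ligase subunit, by 4.68, TNFAIP2 by 2.33 and ICAM1, an adhesion molecule, by 2.29. UBA7, the activating enzyme of the ubiquitin-like protein ISG15, rose by 2.37. BTG2 and SERPINB2 did not pass, at 0.48 and -0.61.

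Myeloid transcription factor genes moved in both directions, with 17 of 41 higher and 9 lower and a median of 0.07. CEBPE, which drives the promyelocyte to myelocyte step and the secondary granule genes, was at 215, 267 and 254 CPM with ATRA and 44.8, 52.2 and 52.8 CPM with DMSO (log2 fold change 2.30, SE 0.08, adjusted p = 6.48e-24). CEBPB, used in emergency granulopoiesis, was at 80.1, 112 and 98.1 CPM against 12.6, 15.1 and 13.8 CPM (log2 fold change 2.80, SE 0.15, adjusted p = 1.2e-18). Neither pair of groups overlapped. SPI1 (PU.1) rose by 0.94 (SE 0.07, adjusted p = 4.46e-14) and IRF1, a factor shared by the retinoid and interferon responses, by 2.41 (SE 0.07, adjusted p = 9.86e-28). CEBPA read 229.6, 270.2 and 247 CPM with ATRA and 193, 215 and 209 CPM with DMSO (0.28, adjusted p = 0.0128); without DMSO replicate 2 or ATRA replicate 4 it did not pass, with adjusted p of 9.69e-09 to 0.107 over all fits. ID1 and ID2, inhibitors of basic helix-loop-helix factors, rose by 5.41 and 1.79, and BCL6, a repressor, by 2.21. EGR1, an immediate early factor, rose by 0.49 (adjusted p = 0.0115), a call lost with the groups compared alone and without DMSO replicate 4, ATRA replicate 4 or ATRA replicate 5 (adjusted p 0.00664 to 0.0665 over all fits). JUN fell from 12.9, 13 and 11.2 to 3.76, 4.57 and 4.79 CPM (log2 fold change -1.48, SE 0.12, adjusted p = 1.77e-13), KLF4, which favours monocyte fate, fell by 2.56, KLF6 fell by 1.32, BATF3 fell by 1.89, IRF8 fell by 0.75 and STAT5A fell by 0.63.

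Genes of stem and progenitor cells fell or did not pass: 9 of 14 fell and none rose, with a median of -0.30. TERT, the catalytic subunit of telomerase, went from 50.6, 55.1 and 52 CPM to 15.7, 17.9 and 19.8 CPM (log2 fold change -1.56, SE 0.09, adjusted p = 2.4e-18). WT1 fell by 1.01, BCL11A fell by 0.97 and GATA2 fell by 0.72. MYC read 303, 342 and 327 CPM with ATRA and 387, 451 and 426 CPM with DMSO (log2 fold change -0.38, SE 0.08, adjusted p = 0.000153), with no overlap. That was a smaller gap than at 4 h, when it had been -1.75, and the change from 4 to 12 h was called (difference 1.37, SE 0.11, adjusted p = 6.45e-12). MYB, a factor of proliferating progenitors, showed the same course: it read 259, 262 and 257 CPM against 287, 267 and 273 CPM at 12 h and was not called (log2 fold change -0.09, SE 0.06, adjusted p = 0.253), after -1.72 at 4 h (difference 1.63, adjusted p = 5.45e-17). Of 11 tested HOX genes and HOTAIRM1, 3 rose and none fell (median 0.36; 2 fell without DMSO replicate 2 and 1 without ATRA replicate 4). HOTAIRM1, a noncoding RNA, rose from 5.06, 5.36 and 4.74 to 16.4, 15.4 and 18 CPM (log2 fold change 1.71, SE 0.10, adjusted p = 5.96e-17), and HOXA2 rose by 1.02, with 76% of its exon bases shared with other models, so that its counts are not independent of theirs.

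The NADPH oxidase, the enzyme complex with which neutrophils make superoxide, had 7 of 9 members higher and 2 lower (median 0.75; 1 lower without DMSO replicate 2). CYBB, the catalytic membrane subunit gp91-phox, was at 718, 689.9 and 693 CPM with ATRA and 295, 285 and 283 CPM with DMSO (log2 fold change 1.28, SE 0.08, adjusted p = 2.53e-17). NCF1, the organizer subunit p47-phox, was at 236, 293 and 287 CPM against 8.3, 7.24 and 7.75 CPM (log2 fold change 5.14, SE 0.11, adjusted p = 3.91e-31), and it has near-identical pseudogenes, so its counts are uncertain. All ATRA libraries stood above all DMSO libraries for both. The other membrane subunit CYBA rose by 0.75, NCF4 by 0.41, the chaperone CYBC1 by 0.62 and the switch RAC2 by 1.22. HVCN1, the proton channel that balances charge during the burst, fell by 0.66 (SE 0.07, adjusted p = 1.04e-09). RAC1 read -0.17 (adjusted p = 0.0173) and was not called without DMSO replicate 2 or with no filter on low counts (adjusted p 4.05e-05 to 0.0738 over all fits).

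Granule genes split by member. The azurophil (primary) granules are filled at the promyelocyte stage, and of 18 tested genes of their content and handling 9 rose and 6 fell (median 0.23). MPO, myeloperoxidase, read 4919.9, 5818 and 5502 CPM with ATRA and 7480.4, 8715 and 8061 CPM with DMSO (log2 fold change -0.58, SE 0.10, adjusted p = 1.64e-05). Its ATRA libraries were all below its DMSO libraries, as were those of CTSG, cathepsin G (-0.58), MS4A3 (-0.68) and CST7 (-0.84). The serine proteases PRTN3 and AZU1 went the other way, by 0.62 (SE 0.09, adjusted p = 2.38e-07) and 0.45 (SE 0.09, adjusted p = 3.5e-05). The defensin DEFA4 rose from 1.86, 2.15 and 1.95 to 33.4, 29.2 and 33.1 CPM (log2 fold change 3.99, SE 0.11, adjusted p = 1.64e-27). BPI, a bactericidal protein, rose by 4.08 and SERPINB1, an inhibitor of the granule proteases, by 2.71. DEFA1, DEFA1B and DEFA3 rose by 1.90, 2.54 and 2.77, but they are near-identical copies and their reads cannot be assigned with certainty. Of 16 tested genes of specific and gelatinase granules, 7 rose and 2 fell (median 0.39). BPI and LYZ are on both granule lists and are counted in each. LCN2, ARG1, CEACAM8 and CEACAM6 of the second list had no count in any 12 h library. ORM1 rose by 1.83, CHI3L1 by 0.61 and MMP9, gelatinase B, by 0.51, whereas PTX3 fell by 1.67 and LYZ, lysozyme, fell by 0.43.

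Adhesion and surface receptors rose as groups. Of 13 integrin genes 11 rose and none fell (1 fell without DMSO replicate 5 or ATRA replicate 2), with a median of 0.98. ITGAM (CD11b), the usual flow cytometry marker of NB4 maturation, was at 46.3, 57.1 and 50.2 CPM with ATRA and 10.2, 9.04 and 9.17 CPM with DMSO (log2 fold change 2.44, SE 0.10, adjusted p = 2.03e-22). ITGAX (CD11c) was at 47.3, 49.4 and 57.3 CPM against 5.85, 6.01 and 5.35 CPM (log2 fold change 3.16, SE 0.12, adjusted p = 8.88e-24). Neither gene had an ATRA library within the DMSO range. Their shared partner ITGB2 rose by 1.25 and ITGB7 by 3.70. ITGB3 and ITGA2B, both near 1 CPM or lower, rose by 1.20 and 0.73, calls that were lost without ATRA replicate 5 for both and without DMSO replicate 2 for ITGA2B (adjusted p up to 0.0798 and 0.117 over all fits). Receptors for antibodies, complement and chemoattractants had 14 of 19 members higher and none lower (median 0.72; 1 lower without ATRA replicate 5). CCR1 rose from 6.95, 6.3 and 7.3 to 32, 30.6 and 30.6 CPM (log2 fold change 2.18, SE 0.10, adjusted p = 3.42e-21), CXCR2, a receptor for interleukin 8, by 1.44, LTB4R, for leukotriene B4, by 0.71, and CR1, a complement receptor, by 0.63. FPR2, a formyl peptide receptor, rose by 2.04.

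Inhibitory and signalling receptors of the immunoglobulin and lectin families moved mostly upward: 20 of 29 rose and none fell (1 fell without DMSO replicate 2 and 2 without ATRA replicate 5), with a median of 1.14. CD300A went from 2.05, 2.18 and 2.41 CPM to 24.1, 25.4 and 23.8 CPM (log2 fold change 3.46, SE 0.11, adjusted p = 4.18e-26). VSIR, also called VISTA, an inhibitory checkpoint protein of myeloid cells, went from 34.8, 41.4 and 38.5 to 356, 433 and 406 CPM (log2 fold change 3.38, SE 0.10, adjusted p = 9.33e-28). In both, every ATRA library was several-fold above every DMSO library. LILRB2 rose by 4.01, CD300C by 2.43, SIGLEC10 by 1.53 and SIRPA, the receptor for the don't-eat-me signal CD47, by 1.38. Among receptors for growth factors and cytokines, 10 of 24 rose and 6 fell (median 0.09). CSF3R, the receptor for granulocyte colony-stimulating factor, was at 145, 170.0 and 179.8 CPM with ATRA and 33.9, 36.7 and 31.3 CPM with DMSO (log2 fold change 2.28, SE 0.09, adjusted p = 1.89e-23). TNFRSF1B rose by 2.07, IL10RB by 0.86 and CSF1R, the macrophage colony-stimulating factor receptor, by 1.58; TGFBR1 fell by 0.97, IL17RA fell by 0.74 and the insulin receptor INSR fell by 0.69.

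The kinases and adaptors that carry receptor signals rose in 19 of 24 cases and fell in 1 (median 0.62; none fell without DMSO replicate 2 or 4 or ATRA replicate 4 or 5). FGR, a SRC-family kinase of phagocytes, was at 145, 177 and 173 CPM with ATRA and 1.66, 1.35 and 1.15 CPM with DMSO (log2 fold change 6.89, SE 0.15, adjusted p = 2.97e-31). PLCB2, the phospholipase downstream of chemoattractant receptors, was at 178, 215 and 229 CPM against 14.3, 16.1 and 15.1 CPM (log2 fold change 3.77, SE 0.09, adjusted p = 5.88e-30). The change was at least 8-fold in both, with tight libraries. SH2D3C rose by 3.09, PIK3CG, the phosphoinositide kinase of chemotaxis, by 1.78, SKAP2 by 1.60 and LCP2 by 1.26. Actin and migration genes rose in 19 of 25 cases (median 0.41), among them the myosin MYO1F (303, 346 and 330.2 to 1009, 1169.5 and 1132 CPM, log2 fold change 1.76, SE 0.07, adjusted p = 8.73e-23), WIPF1 (0.99), VCL, vinculin (0.90), DOCK5 (0.98) and WAS (0.93). ELMO1, a partner of DOCK proteins, was the only listed actin gene that fell (-0.36, SE 0.07, adjusted p = 3.83e-05).

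Feedback and growth factor pathways moved in both directions. Of 17 MAPK feedback genes 6 rose and 6 fell (median -0.16): DUSP6, a phosphatase for ERK, rose by 1.37, SPRY1 by 1.04 and DUSP5 by 1.32, while SPRY4 fell from 12.1, 11.8 and 11.7 to 1.5, 1.92 and 1.7 CPM (log2 fold change -2.77, SE 0.12, adjusted p = 4.78e-22), DUSP10 fell by 1.41 and DUSP2 fell by 0.92. In the BMP and TGF-beta list 6 of 18 rose and 5 fell (median -0.08). NOG, a secreted antagonist of BMPs, fell from 6.44, 6.98 and 8.14 to 0.77, 1.11 and 1.09 CPM (log2 fold change -2.82, SE 0.19, adjusted p = 8.7e-16), BAMBI, a decoy receptor, fell by 0.89 and TGIF1 fell by 0.58, and the signal carrier SMAD3 and its repressor SKIL rose by 0.83 and 1.37.

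Chemokine genes, which code for secreted attractants of leukocytes, moved in both directions. CCL24 (eotaxin 2) was at 35.7, 38.8 and 39.2 CPM with ATRA and 0.079, 0.0884 and 0.0764 CPM with DMSO (log2 fold change 8.77, SE 0.25, adjusted p = 1.3e-27). It was close to 0 in every DMSO library. CCL2 rose from 14.3, 13.3 and 12.1 to 112, 108 and 107 CPM (log2 fold change 3.04, SE 0.12, adjusted p = 5.41e-23). CXCL8 (interleukin 8) fell by 0.60 (SE 0.12, adjusted p = 6.29e-05) and CXCL2 fell by 1.60. In all 6 of 14 tested chemokines rose and 3 fell (median 0.38). Among 21 cytokines and death ligands 6 rose and 5 fell (median -0.08; 3 fell without ATRA replicate 2). TNF, tumour necrosis factor, was at 11.4, 14.5 and 13 CPM with ATRA and 40.1, 47.7 and 44.2 CPM with DMSO (log2 fold change -1.75, SE 0.12, adjusted p = 9.28e-16), LTB fell by 1.20 and TNFSF14 fell by 1.16, while IL16, EBI3, TNFSF9 and TNFSF13B (BAFF) rose by 0.97, 1.18, 2.15 and 1.22. Of 19 NF-kB genes 6 rose and 4 fell (median 0.17), with BCL3 at 1.82 and TRAF1 at 0.96 among those higher and RELB at -0.69 and TNFAIP3, the feedback inhibitor A20, at -0.45 among those lower.

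Interferon-stimulated genes rose widely. Of 35 tested, 28 rose and 2 fell, with a median of 1.02; at 4 h 19 had risen with a median of 0.51, and at 24 h 29 with a median of 1.57. Of all genes tested, 24.7% were called at 4 h and 33.2% at 24 h in either direction, with 12.3% and 17.4% called higher. PARP14 was at 85.1, 83.3 and 72.8 CPM with ATRA and 12.5, 10.7 and 12.6 CPM with DMSO (log2 fold change 2.76, SE 0.09, adjusted p = 2.03e-25). OAS3, which makes the signal that activates RNase L, was at 55.6, 61.4 and 55.2 CPM against 14.8, 17.5 and 15.2 CPM (log2 fold change 1.85, SE 0.10, adjusted p = 3.58e-18). Both were higher in all 3 ATRA libraries. UBE2L6, a conjugating enzyme for ISG15, rose by 2.34, IFI35 by 2.04 and DTX3L by 1.46. ISG20 fell by 0.48 and HERC5 fell by 0.44. Genes of antigen presentation rose in 14 of 18 cases and none fell (median 0.85): the immunoproteasome subunits PSMB9, PSMB8 and PSMB10 by 2.08, 1.08 and 1.25, the peptide transporter TAP1 by 1.01 and HLA-E by 0.83. Of 11 genes of PML nuclear bodies 5 rose and 2 fell (median 0.06; 1 fell without ATRA replicate 2). PML itself, whose counts include the fusion transcript, read 75.9, 83.6 and 82.8 CPM with ATRA and 57, 57.8 and 56 CPM with DMSO (log2 fold change 0.51, SE 0.07, adjusted p = 6.25e-07), SP100 rose by 0.58 and HIPK2, a kinase of these bodies, by 2.31.

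Coagulation genes are of interest in this leukaemia because untreated patients bleed. F3 (tissue factor), which starts coagulation, was at 4.17, 4.48 and 4.76 CPM with ATRA and 29.3, 29.6 and 32.8 CPM with DMSO (log2 fold change -2.76, SE 0.12, adjusted p = 3.49e-22). THBD (thrombomodulin), an anticoagulant receptor, was at 101, 131 and 118 CPM against 21.5, 25 and 22.2 CPM (log2 fold change 2.35, SE 0.12, adjusted p = 7.53e-20). The groups were separate for both genes, in opposite directions. ANXA2, which assembles plasmin on the cell surface, fell by 0.77 and PLAUR, the urokinase receptor, fell by 1.06, while PLAU, urokinase, rose by 1.14 and PROS1, protein S, by 1.55. Over the list 5 of 15 rose and 3 fell (median 0.08). Of 14 lipid mediator genes 6 rose and 6 fell (median 0.21). PTGES, prostaglandin E synthase, rose from 0.119, 0.0884 and 0.153 to 16.2, 18.7 and 16.7 CPM (log2 fold change 7.15, SE 0.23, adjusted p = 6.69e-26), and ALOX5AP, which presents arachidonic acid to 5-lipoxygenase, from 1.54, 0.825 and 1.07 to 48.1, 50.7 and 56 CPM (log2 fold change 5.53, SE 0.14, adjusted p = 6.96e-29). CYP4F3, which inactivates leukotriene B4, rose by 6.09, PTGS1 by 1.90 and TBXAS1, thromboxane synthase, by 0.74, and the prostaglandin receptor PTGER4 fell by 1.08.

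Of the genes of cell survival, BCL2 and a relative of it moved in opposite directions. BCL2, the founding inhibitor of mitochondrial apoptosis, was at 22.5, 21.1 and 21.1 CPM with ATRA and 83.5, 76.4 and 78.5 CPM with DMSO (log2 fold change -1.88, SE 0.07, adjusted p = 1.82e-24). BCL2A1, a related inhibitor used by mature neutrophils, was at 15.9, 14.5 and 15.5 CPM against 0.672, 0.766 and 0.879 CPM (log2 fold change 4.30, SE 0.15, adjusted p = 1.98e-24). No library of one group fell in the range of the other. MCL1 was not called (0.14, SE 0.06, adjusted p = 0.0552), though 6 of 16 alternative fits called it (adjusted p 0.000325 to 0.443). The decoy receptor TNFRSF10C rose by 1.70, the killers BIK and BMF by 1.20 and 0.74 and CFLAR, an inhibitor of caspase 8, by 0.47, while FAS fell by 0.71 and TNFRSF10A fell by 0.35. The list had 9 of 23 higher and 5 lower (median 0.14).

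In the lists of G1 and replication genes more members fell than rose at 12 h, and most mitosis genes were not called. Of 13 G1 cyclins and kinases 8 fell and 2 rose (median -0.25; 1 rose without DMSO replicate 2 or 5 or ATRA replicate 4 or 5). CDK4 fell by 0.61 (155, 176 and 160.2 to 103, 116 and 104 CPM, SE 0.08, adjusted p = 5.21e-08). CDC25A fell by 0.43 and SKP2 fell by 0.26, and CCND1 rose by 0.33. Of 30 replication genes 16 fell and 1 rose, with a median of -0.17. At 4 h none had fallen and 6 had risen, when 12.4% of all genes tested were called lower and 12.3% higher. CDC6, which loads the replicative helicase, read 53.4, 54.6 and 51.9 CPM with ATRA and 75.5, 75.6 and 75.4 CPM with DMSO (log2 fold change -0.50, SE 0.08, adjusted p = 2.66e-06), MCM10 fell by 0.44 and MCM4 fell by 0.31. The only riser, LIG1 (0.14, adjusted p = 0.0324), was lost in 7 of 16 fits (adjusted p up to 0.43), among them those without any single library but ATRA replicate 2. Of 30 mitosis genes 4 rose and 2 fell (median 0.02; 2 rose without DMSO replicate 4, 1 without DMSO replicate 5 or ATRA replicate 4; 1 fell without DMSO replicate 2 or ATRA replicate 5), where 15 had risen at 4 h. CCNA2, cyclin A2, fell by 0.39 and CDC25C rose by 0.39. MKI67, the proliferation antigen, read 575, 506 and 484 CPM with ATRA and 515, 409.9 and 424 CPM with DMSO, overlapping groups (log2 fold change 0.21, SE 0.08, adjusted p = 0.0375), and 8 of 16 fits did not call it, including those without DMSO replicate 4, DMSO replicate 5, ATRA replicate 2 or ATRA replicate 4 (adjusted p 8.29e-07 to 0.259 over all). Among cell cycle inhibitors 9 of 17 rose and 5 fell (median 0.30; 3 fell without DMSO replicate 2, ATRA replicate 4 or ATRA replicate 5). CDKN2D (p19) rose from 9.16, 10.2 and 9.63 to 30.5, 33.7 and 34.2 CPM (log2 fold change 1.76, SE 0.08, adjusted p = 1.08e-20), CDKN1C (p57) by 2.20 and BTG1 by 1.11. CDKN1A (p21) went the other way, at 0.861, 1.08 and 1.06 CPM with ATRA and 2.21, 2.68 and 2.37 CPM with DMSO (log2 fold change -1.26, SE 0.22, adjusted p = 1.4e-05), after 0.52 at 4 h.

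The genes that build ribosomes fell without exception on their list, which like the others was chosen with earlier results of these data known. All 32 tested ribosome biogenesis genes fell, with a median of -0.55. Of them 27 were lower at 4 h and 20 at 24 h, against 12.4% and 15.8% of all genes tested. By the test of the change from 12 to 24 h, which called 2.5% of all genes upward, 16 regained part of the difference. NCL, nucleolin, read 667, 715 and 688 CPM with ATRA and 1095, 1107 and 1144 CPM with DMSO (log2 fold change -0.69, SE 0.07, adjusted p = 1.02e-10). RRP9 read 42, 46.5 and 47.7 CPM against 77.8, 90.0 and 92 CPM (log2 fold change -0.93, SE 0.08, adjusted p = 1.85e-12). The differences were moderate in size and the libraries tight. MRTO4 fell by 0.85 and PES1 fell by 0.71. RNA polymerase I and III genes fell in 18 of 23 cases (median -0.28), with POLR1G at -0.94 and POLR3G at -0.94. The cytosolic ribosomal protein genes themselves were called by edgeR in none of 30 cases (median -0.06), with 2 at an unadjusted p below 0.05; DESeq2 called 1 and limma-voom 2. Other edgeR fits called some: 3 higher with protein-coding genes only, 1 higher at a minimum of 1 CPM, and 3 higher and 11 lower with a replicate block in the groups compared alone.

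Other biosynthetic groups were lower too. Of 24 genes of nucleotide synthesis 18 fell and none rose (median -0.39), PAICS from 469, 444 and 435 to 293, 286 and 287 CPM (log2 fold change -0.64, SE 0.07, adjusted p = 2.32e-09), DHODH, a step of pyrimidine synthesis, fell by 0.79 and PPAT, the first enzyme of purine synthesis, fell by 0.52. Of 20 aminoacyl tRNA synthetases 14 fell (median -0.34), among which IARS1 fell by 0.53. WARS1, the tryptophan enzyme, which interferon also induces, rose instead by 1.19 (SE 0.07, adjusted p = 1.83e-17), and QARS1 by 0.27. Amino acid supply genes fell in 14 of 23 cases (median -0.38). SLC7A5, the transporter of large neutral amino acids, was at 110.3, 139 and 129 CPM with ATRA and 390.1, 473 and 411 CPM with DMSO (log2 fold change -1.75, SE 0.12, adjusted p = 6.65e-16), and its partner SLC3A2 fell by 0.81, TRIB3 fell by 0.91 and PSAT1, of serine synthesis, fell by 0.85. DDIT3 (CHOP) and DDIT4, an inhibitor of mTOR, rose by 0.63 and 0.91. Chaperones of the endoplasmic reticulum fell in 17 of 20 cases at 12 h, with 1 risen (none without DMSO replicate 4) and a median of -0.44, against 2 fallen at 4 h and 4 at 24 h; the drop from 4 to 12 h was called in 10 (5.89% of all genes) and the return by 24 h in 11. CALR, calreticulin, read 1391, 1519 and 1409 CPM against 2646, 2789 and 2765 CPM (log2 fold change -0.92, SE 0.07, adjusted p = 1.7e-13), and XBP1 fell by 0.82. Cytosolic and mitochondrial chaperones fell in 16 of 18 cases (median -0.43), with HSPD1 at -0.53 and CCT2 at -0.52.

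**Figure D2:**
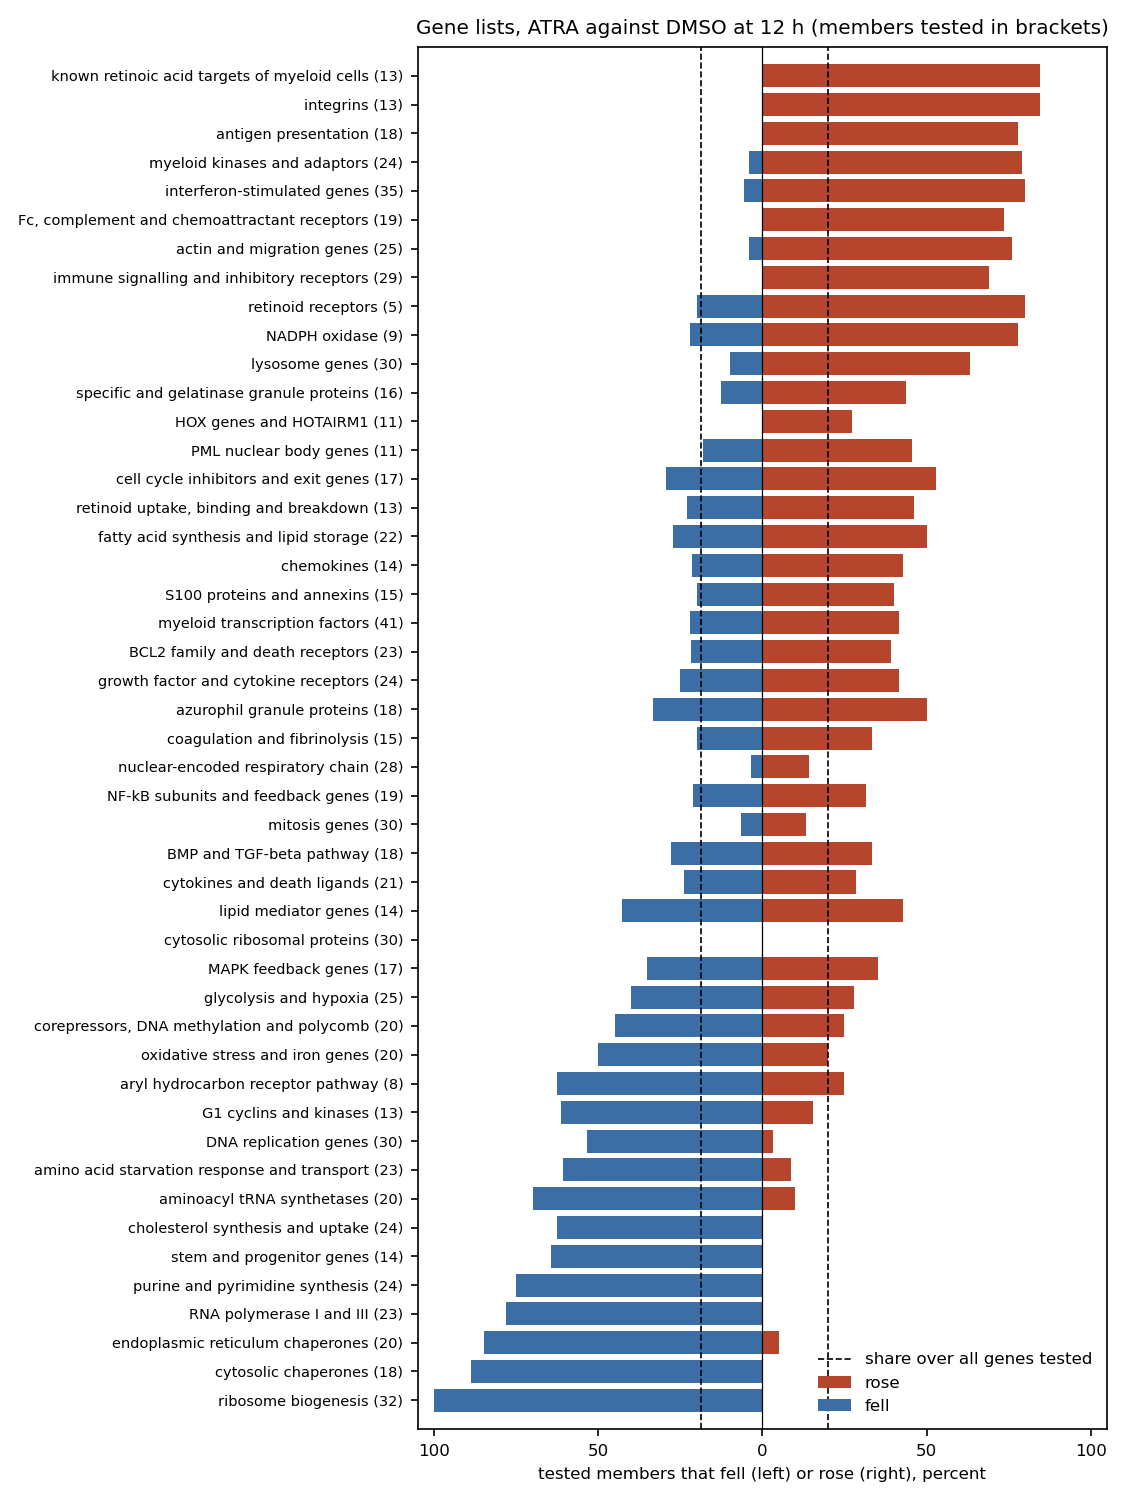
Bars give the percentage of tested members of each gene list that rose (right, red) or fell (left, blue) with ATRA at 12 h, with the number tested in brackets; dashed lines mark the same percentages over all 22971 genes, 20 to the right and 18.7 to the left. Retinoic acid targets and integrins reach furthest to the right, and all 32 ribosome biogenesis genes lie to the left. Of 13418 protein-coding genes, the class of most listed genes, 49.5% were called, 2917 higher and 3724 lower, which the dashed lines do not show.

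Most genes of cholesterol synthesis were lower at 12 h. Of 24 genes of synthesis and uptake 15 fell and none rose (median -0.30); at 4 h 6 were lower and at 24 h 2, and the change from 12 to 24 h was called upward in 19. HMGCS1, an early enzyme of the pathway, was at 28.5, 28.1 and 26.6 CPM with ATRA and 60.7, 51.5 and 55.3 CPM with DMSO (log2 fold change -1.01, SE 0.09, adjusted p = 1.53e-11). The groups were separate at 12 h, and the log2 fold changes of HMGCS1 at 4 h and 24 h were -0.17 and 0.13. CYP51A1 fell by 1.11 and LSS fell by 0.88. Fatty acid and lipid storage genes went both ways, 11 of 22 up and 6 down (median 0.17). SREBF1, a master regulator of lipid synthesis, rose by 1.11, ABCA1, which exports cholesterol, by 1.28 and ACSL1 by 1.12, while FASN, fatty acid synthase, fell by 0.59, SCD fell by 0.34 and ACSL6 fell by 2.41.

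Glycolysis genes were mixed, 7 of 25 higher and 10 lower (median -0.13), and relatives moved apart. The hexokinase HK3, the form of mature myeloid cells, rose from 0.356, 0.177 and 0.191 to 12, 12.8 and 14.3 CPM (log2 fold change 5.77, SE 0.20, adjusted p = 4.43e-25), while HK2 fell by 0.80 (SE 0.07, adjusted p = 2.06e-12). The sugar transporter SLC2A5 rose from 27.3, 30.2 and 28.6 to 338, 378 and 380.4 CPM (log2 fold change 3.67, SE 0.07, adjusted p = 2.01e-32), and SLC2A3 fell by 1.22. The members of each pair thus changed in opposite directions between the groups. Of 28 respiratory chain genes 4 rose (2 without DMSO replicate 5 or ATRA replicate 4) and 1 fell (median 0.06). Lysosome genes rose in 19 of 30 cases and fell in 3 (median 0.28): CTSD, cathepsin D, was at 474, 589 and 562 CPM against 95.8, 118 and 103 CPM (log2 fold change 2.36, SE 0.10, adjusted p = 1.01e-21), and TFEB, a regulator of lysosome formation, rose by 2.62, and CTSH fell by 0.81. The aryl hydrocarbon receptor list had 5 of 8 lower and 2 higher (median -0.46). CYP1B1, a target gene of that receptor, was at 18.1, 16.8 and 18.7 CPM with ATRA and 137, 139 and 145 CPM with DMSO (log2 fold change -2.97, SE 0.08, adjusted p = 1.25e-28), whereas CYP1A1, another target, rose by 1.59. Of 20 oxidative stress and iron genes 10 fell and 4 rose (median -0.25). NQO1, a quinone reductase, fell by 0.91, GCLM, of glutathione synthesis, fell by 0.71, and FTL, ferritin light chain, rose by 0.87. Of 15 S100 and annexin genes 6 rose and 3 fell (median 0.15; 1 fell without DMSO replicate 5 or ATRA replicate 5). S100A8 and S100A9, the calprotectin subunits of neutrophil cytosol, rose by 2.66 and 3.66. Of 20 corepressors and chromatin enzymes 5 rose and 9 fell (median -0.07; 2 rose without DMSO replicate 4 and 3 without any 1 of the other 12 h libraries but DMSO replicate 2). DNMT3B, a DNA methyltransferase, fell by 0.95, KDM1A, the demethylase LSD1, fell by 0.50 and SIN3A fell by 0.47, and KDM6B rose by 1.39.

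The largest fold changes outside these lists included genes almost silent with DMSO. SMIM35 rose from 0.079, 0.0295 and 0.0764 to 10.8, 9.82 and 9.43 CPM (log2 fold change 7.30, SE 0.25, adjusted p = 8.28e-25) and SLC24A4, an ion exchanger, from 0, 0.0295 and 0.229 to 8.52, 7.9 and 10.4 CPM (log2 fold change 6.69, SE 0.32, adjusted p = 2.13e-20; 8.68 without DMSO replicate 5). SCUBE1 rose by 6.34 (7.13 without DMSO replicate 4). These DMSO levels rest on 5 and 7 counts over 3 libraries for the first pair and 9 for SCUBE1. ARL14EPL had 631 counts with ATRA and 1 with DMSO, a scaled ratio of 610.4 (95% counting interval 109 to 24147); CXCR5, a chemokine receptor, had 149 and 1, a ratio of 144 (25.5 to 5731). The single DMSO count of each was in replicate 5. CEACAM1, an adhesion molecule, had no count with DMSO and was at least 13.2-fold higher. At the other end FGL1, a secreted fibrinogen-like protein, read 0.136, 0.451 and 0.546 CPM with ATRA and 9.32, 8.25 and 8.86 CPM with DMSO (log2 fold change -4.43, SE 0.21, adjusted p = 2.69e-20). TAMALIN fell from 9.88, 9.31 and 9.7 to 0.68, 0.991 and 0.485 CPM (log2 fold change -3.72, SE 0.17, adjusted p = 6.01e-21). The 6 libraries of each split cleanly. SH3BP5 fell by 3.32, GPR146 fell by 2.83, GSAP fell by 2.80, SHISA2 fell by 2.75 and CYTL1 fell by 2.71. Genes were also ranked by difference in CPM, a measure not scaled to gene length, so the order depends on length as well as change. The leading rises besides those named were ALAS1, the first enzyme of haem synthesis (123, 128 and 127 to 583, 618 and 652 CPM, 2.29), RCSD1 (2.72) and APLP2 (1.11). The leading falls were VIM, vimentin (301, 345 and 312 to 106, 119 and 101 CPM, -1.56), FSCN1, fascin (-1.09), FKBP4 (-1.01), MLC1 (-1.08), SLC20A1 (-1.20) and BAHCC1 (-1.23).

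Noncoding RNAs were more often higher than lower. Of 3365 long noncoding RNA genes tested 804 rose and 190 fell (median 0.30), and of 3044 models of the FANTOM CAT annotation without an Ensembl gene 559 rose and 88 fell (median 0.34), whereas of 13418 protein-coding genes 2917 rose and 3724 fell (median -0.04). H19, an imprinted RNA, was at 75.2, 84.7 and 84 CPM with ATRA and 3.08, 3.71 and 3.48 CPM with DMSO (log2 fold change 4.56, SE 0.13, adjusted p = 1.3e-27). PTPRN2-AS1 was at 144, 157 and 146 CPM against 7.19, 7.45 and 8.29 CPM (log2 fold change 4.28, SE 0.11, adjusted p = 1.21e-29). Neither showed overlap. PELATON, an RNA of monocytes and macrophages, had 580 counts with ATRA and 1 with DMSO (scaled ratio 561, 95% counting interval 100.3 to 22198; the DMSO count was in replicate 5), and LINC00398 had none with DMSO and was at least 11.6-fold higher. LINC02863 and ZMIZ1-AS1 rose by 4.26 and 3.95 (5.29 for the latter without DMSO replicate 5). LINC01833 fell from 6.52, 6.69 and 6.46 to 1.4, 1.26 and 1.64 CPM (log2 fold change -2.19, SE 0.15, adjusted p = 5.15e-15), CYP1B1-AS1 fell by 1.48, LINC02204 fell by 1.37 and LINC03048 fell by 1.37. Genes on opposite strands were told apart by a stranded kit and strand-aware counting.

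**Figure D3:**
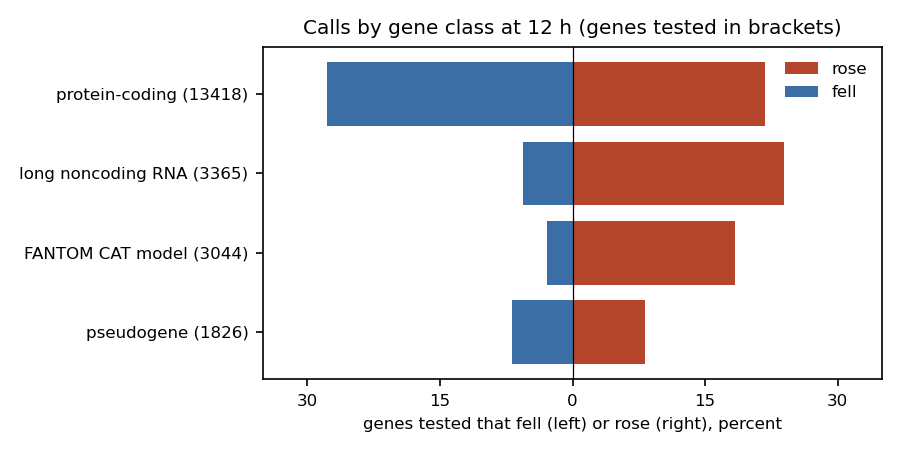
Bars give the percentage of tested genes of each class that rose (right, red) or fell (left, blue) with ATRA at 12 h, with the number tested in brackets. Long noncoding RNAs and FANTOM CAT models are mostly to the right, with 804 and 559 genes higher against 190 and 88 lower.

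To place 12 h in the course of the response, the ATRA effect was compared with the effects at 4 h and 24 h, each taken against DMSO of its own time. From 4 to 12 h the effect changed in 3222 genes (14%), upward in 1868 (8.13%) and downward in 1354 (5.89%); without DMSO replicate 4 of 4 h these were 1857 and 2018, so that the larger number was downward. From 12 to 24 h it changed in 1584 (6.9%), upward in 574 (2.5%) and downward in 1010 (4.4%). With the groups compared alone these were 1104 and 1132, and with a replicate block there 1887 and 1486, so that the excess of downward changes depended on the fit. Both contrasts use the 12 h libraries and are not independent, and the 24 h libraries came from lanes 2 and 3, with ATRA and DMSO of a replicate in the same lane. Against the mean of 4 h and 24 h, the 12 h effect differed in 1724 genes (7.51%), 1174 (5.11%) upward and 550 (2.39%) downward. The number downward was 353 without ATRA replicate 5 of 12 h and 1012 without DMSO replicate 4 of 4 h. Only part of these genes was set against each neighbour by itself. That part was protein-coding genes with a symbol, an average log2 CPM of at least 1 and a call at 12 h. In it the 12 h effect was beyond both neighbours in 575 genes upward and 459 downward.

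Among genes whose effect rose into 12 h, CCL24 went from 4.81 to 8.77 (difference 3.97, SE 0.65, adjusted p = 2.14e-05), HK3 from 1.48 to 5.77 (difference 4.29), DEFA4 from 0.50 to 3.99 and TNNT3, a troponin, from 2.55 to 5.98. IPCEF1 reversed, from -1.02 at 4 h to 2.23 at 12 h. Other effects fell between the same times. HES2, a repressor related to the Notch targets, turned from 2.23 to -2.70 (difference -4.93, SE 0.29, adjusted p = 1.55e-15). UCN2 turned from 2.09 to -1.24, and CNR2, a cannabinoid receptor of immune cells, went from 0.24 to -2.61. After 12 h the effects on BPI and DEFA4 went on rising, BPI to 7.45 at 24 h (difference 3.37, SE 0.62, adjusted p = 0.000232) and DEFA4 to 5.95. FBN1, fibrillin 1, went from 1.77 to 3.99. Falls went on in VIM, to -4.60, ACSL6, to -7.25, and ANXA8L1, from -2.07 to -4.78.

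Some effects were at their greatest at 12 h. ADGRG3, an adhesion receptor of neutrophils, read 47.6, 55.4 and 51.9 CPM with ATRA and 1.66, 1.86 and 1.34 CPM with DMSO at 12 h (log2 fold change 4.98, SE 0.11, adjusted p = 9.88e-31), with effects of 2.09 and 4.21 at 4 h and 24 h, and its 12 h effect exceeded their mean by 1.83 (SE 0.16, adjusted p = 2.58e-10). NHSL2 rose by 1.87 at 12 h and was lower by 24 h (-0.84), an excess over the mean of 2.09. C5AR2, a second receptor for the complement fragment C5a, was higher at 12 h alone of the 3 times (1.46, with -0.40 and -0.31 not called at 4 h and 24 h), and its excess of 1.81 was called. Troughs at 12 h were shallower: ABTB3 (-2.38, -1.34 below the mean), SOCS2, a feedback inhibitor of cytokine signals (-1.48, -1.06), NKD2, an inhibitor of Wnt signals (-2.14, -1.01), LDLRAD3 (-1.85, -0.99), HMGCS1 (-0.99) and CYP51A1 (-0.95).

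**Figure D4:**
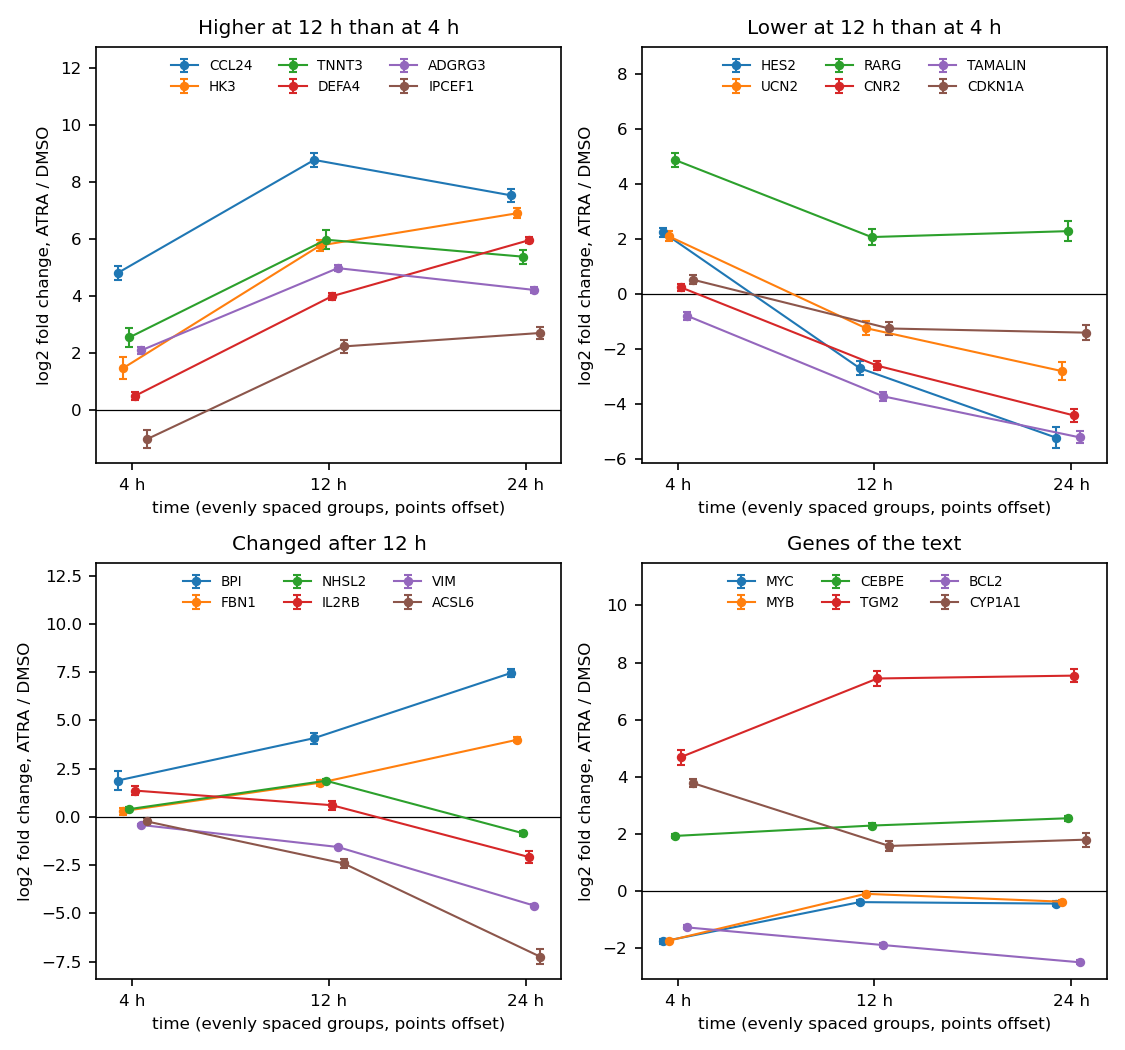
Each panel plots the log2 fold change of ATRA over DMSO at 4, 12 and 24 h for 6 genes, with bars of 1 SE from the fit and a line at 0; the times are drawn as evenly spaced groups and the points are offset sideways. The points of CCL24 rise from 4 to 12 h, HES2 and UCN2 cross from above to below 0, and MYC and MYB come back toward 0 after 4 h.

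The DMSO cells at 12 h were not the same as the untreated cells at 0 h, so ATRA is set against a control that had itself changed. Of the 22971 genes 5208 (22.7%) differed, 2565 higher and 2643 lower after 12 h with DMSO. These libraries of DMSO are also those of the ATRA comparison, so the values below are given side by side and not related to each other. The immediate early genes were lower: FOS was at 73.3 ± 2.13 CPM (mean ± SD, n = 3) untreated, 1.9 ± 0.274 CPM with DMSO and 1.6 ± 0.24 CPM with ATRA (DMSO against untreated -5.25, adjusted p = 3.14e-28), EGR1 at 57.5 ± 5.7, 1.66 ± 0.0982 and 2.29 ± 0.261 CPM, and FOSB at 26.9 ± 1.95, 0.405 ± 0.115 and 0.543 ± 0.182 CPM. EGR3 and EGR2 differed by -7.94 and -5.95, DUSP1 by -4.04 and the chemokine CCL4 by -4.13. TNF stood at 314 ± 41.1 CPM untreated, 44 ± 3.8 CPM with DMSO and 13 ± 1.53 CPM with ATRA, in falling steps. HMGCS1 stood at 145 ± 8.68, 55.8 ± 4.63 and 27.7 ± 1.04 CPM, and 21 of the 24 cholesterol genes were lower with DMSO than untreated. CYP1B1 was different, at 39.5 ± 1.92 CPM untreated, 140.5 ± 4.32 CPM with DMSO and 17.9 ± 0.953 CPM with ATRA: the control had risen and the ATRA cells lay below both. HMOX1, haem oxygenase, was higher with DMSO than untreated by 3.33 and LRRC49 by 3.35, and none of FOS, FOSB, EGR3 and DUSP1 was called between ATRA and DMSO. Handling and culture time differ along with DMSO between these 2 groups and cannot be told apart from it.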

How the data were processed

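Gene-level read counts of 33 stranded, paired-end total RNA libraries were used as deposited by the authors. Reads were trimmed with Trimmomatic 0.36 and aligned with STAR 2.5.2b to GRCh38, per the submitters' processing notes. They were counted by strand with featureCounts 1.5.1 over merged Ensembl release 90 and FANTOM CAT models, per the file headers; a read over several models was counted for each. The table has 85160 genes and 0 columns of other samples.

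The gene lists and the rule for named genes were chosen with earlier results of these data known. edgeR 4.0.16 (R 4.3.3) fitted 1 mean per group over all 33 libraries, after filterByExpr and TMM scaling, with a quasi-likelihood test and Benjamini-Hochberg adjustment over 22971 genes. The SE is the log2 fold change divided by the root of its F statistic. CPM use TMM-scaled library totals; the unscaled totals were 19937992 to 33490654 counts at 12 h. Count ratios carry exact 95% intervals and a floor of 3 counts per group, for counting error only. Named genes were the 12 per direction of largest fold and 8 of largest CPM difference, 6 noncoding RNAs per direction, up to 6 members of smallest p per list, all members of lists of up to 13, members against their list's direction, a core set of 26, and for other contrasts 8 per direction; some of these genes are not reported here. The fit was tested on simulated data. Alternatives were RLE scaling, DESeq2 1.42.0, limma-voom 3.58.1, other filters, the groups compared alone, a replicate block and each library left out. Libraries at 72 and 120 h entered only the estimate of spread.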

Additional observations from a re-analysis of the deposited data

Results flagged for a closer look

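The effect of ATRA differed between times in many genes by the test of the difference itself (edgeR, adjusted p below 0.05). It changed in 3222 genes from 4 to 12 h and in 1584 from 12 to 24 h, and the 12 h effect differed from the mean of its neighbours in 1724.

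Of the 22971 genes tested, 211 had an effect called in opposite directions at 4 and 12 h, 146 of them lower at 4 h and higher at 12 h and 65 the reverse. In 122 of the 22971 genes the effects at 12 and 24 h were opposite, 100 of them higher at 12 h and lower at 24 h and 22 the reverse.

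Of the genes named, HES2 changed by -4.93 and UCN2 by -3.33 on the log2 scale from 4 to 12 h, each from above to below DMSO. IPCEF1 changed by 3.25 over the same interval, from below to above. From 12 to 24 h NHSL2 changed by -2.72, from above to below. IL2RB, the beta chain of the interleukin 2 receptor, changed by -2.68 from 0.61 at 12 h to -2.07 at 24 h. Its 12 h call (adjusted p = 0.033) was lost without any 1 library of 12 h except DMSO replicate 4, and the adjusted p ran from 0.00531 to 0.181 over 16 alternative fits.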

How the results depend on the processing

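The 8888 calls at 12 h numbered 7773 to 8240 with each library left out, and 8645, 8097 and 8742 of the same genes were called with RLE scaling, DESeq2 and limma-voom. Higher and lower calls at 12 h, 4600 and 4288, were 4012 and 4101 with no filter on low counts and 5290 and 5500 with a replicate block in the groups compared alone, so which direction had more calls was not stable. The groups compared alone gave 1104 upward changes from 12 to 24 h in place of 574. A replicate block gave 9139 calls at 12 h, and was kept as an alternative because the labels do not say what the replicate number means. At 12 h the deviations of same-numbered libraries from their group means correlated at 0.185, 0.186 and 0.037. Libraries of unlike number correlated at -0.180 to 0.013 there. At 4 h and 24 h the same-numbered libraries correlated at -0.019 to 0.062. In the groups compared alone, the replicate block gave 3373 changes from 12 to 24 h, 1887 of them upward, and 866 genes whose 12 h effect was below the mean of 4 h and 24 h in place of 550. By these deviations each 12 h library correlated best with its own number in the other group, a hint from the data and not from the design. With 1 library left out, changes from 4 to 12 h numbered 2630 to 3875 (1466 to 1857 upward, 1143 to 2018 downward) and from 12 to 24 h 1223 to 1578 (408 to 589 upward, 815 to 989 downward). Differences of 12 h from the mean of its neighbours numbered 1164 to 2267 (801 to 1255 upward, 353 to 1012 downward), and DMSO against untreated 4016 to 4502 (1798 to 2238 and 1998 to 2264). The cause of these shifts was not tested. The 12 h calls upward numbered 3892 to 4245 and downward 3867 to 4107.

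Over single genes and lists, the alternatives left 11318 values on their side of the threshold, made 162 weaker and 262 stronger and moved 60; leaving out a library left 7089, made 373 weaker and 58 stronger and moved 46. Levels near 0 with DMSO limit the fold changes of the most induced genes, and all cells come from 1 line.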

Other observations

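Some genes known from other lineages changed at 12 h and are given as values. CCR3, the eotaxin receptor of eosinophils, had 317 counts with ATRA and 4 with DMSO and rose by 6.11 (SE 0.43, adjusted p = 6.35e-15; 7.19 without DMSO replicate 4). Of 12 tested eosinophil, basophil and mast cell markers 2 rose and 3 fell. HDC, which makes histamine in basophils and mast cells, read 3.4, 4.84 and 5 CPM with ATRA and 15.5, 19.2 and 15.5 CPM with DMSO (log2 fold change -1.90, SE 0.13, adjusted p = 2.03e-15), EPX, eosinophil peroxidase, fell by 1.10 and PRG2, major basic protein, fell by 0.51. GATA1, a factor of eosinophils, mast cells and red cells, rose by 0.68.

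CD79A, a chain of the B cell receptor complex, read 10.1, 12.4 and 11.2 CPM with ATRA and 1.7, 2.47 and 2.33 CPM with DMSO (log2 fold change 2.36, SE 0.15, adjusted p = 1.45e-16), with no overlap, while MS4A1 had no count. CD79B, the other chain, fell by 0.39 (adjusted p = 0.00459), a call lost without DMSO replicate 4 or ATRA replicate 2 (adjusted p 4.97e-05 to 0.0641 over all fits). Of 8 tested lymphocyte markers 4 rose and 1 fell. KRT8, a keratin of epithelia, rose by 2.41 and PDGFRB, a receptor of mesenchymal cells, by 1.54, while KRT19, COL3A1 and LUM had no count. The sum of the epithelial and mesenchymal list, most of which is VIM, was 132 to 153 CPM with ATRA and 327 to 371 CPM with DMSO. MERTK, a receptor for dying cells on macrophages, read 13.6, 13.8 and 12.3 CPM with ATRA and 2.49, 2.59 and 1.87 CPM with DMSO (adjusted p = 1.46e-19). CSF1R, of the same lineage, rose by 1.58 at 12 h and was at -0.28 at 24 h, a change of -1.87 (adjusted p = 9.4e-11). CD14, a further marker of that list, was at -2.61 at 12 h and not called.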
